A study of Homo sapiens with 6 samples.

Results

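The 40 genes described here encode the factors that make ribosomes in the nucleolus, together with subunits and the upstream binding factor of RNA polymerase I. They were taken by symbol from a fixed list, and all 40 were found among the 58735 gene identifiers of the count tables. Of them 39 had enough counts to be tested, out of 14773 genes tested in all. RNA was sequenced from cells labelled as wild-type A549, a widely used human lung cancer cell line (of the non-small cell type). The control group was left untreated and the other group received B35 at 2 µM, both for 72 h, with 3 libraries per group. B35 is given in the series as an LSD1 inhibitor (LSD1 is a histone demethylase, the product of KDM1A), and the question is which transcripts the compound changes. No solvent is named for the untreated cells. Whether replicates were separate cultures is not stated, so p-values reflect the spread among these 6 libraries, which may be technical.

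Ribosome production starts when RNA polymerase I, brought to the ribosomal DNA by the upstream binding factor UBF, transcribes the long precursor of the ribosomal RNAs. Small nucleolar ribonucleoproteins then guide its methylation (box C/D particles, with fibrillarin) and its pseudouridylation (H/ACA particles, with dyskerin). The small subunit processome folds and cleaves the part that becomes the 40S subunit, and a separate set of helicases, scaffolds and GTPases builds the 60S subunit. Growing cancer cells keep this pathway active, and many of its genes are known targets of MYC.

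Library totals ran from 17141478 to 18530670 counts. On the first principal component, with 48.5% of the variance, the 3 control and 3 B35 libraries lay apart, and on the next, with 20.9%, B35 replicate 1 lay apart from the other B35 libraries. Mitochondrial transcripts took 5.20% of the counts in B35 replicate 1 and 3.52% to 4.35% in the other 5 libraries. KDM1A was at 198 ± 2.56 CPM (counts on a common library scale, set with TMM factors) in controls and 184 ± 8.97 CPM with B35 (SD, n = 3 each), and it did not pass the test (edgeR adjusted p = 0.432). Of 9 markers checked for the labelled line, KRT8, KRT7, KRT18 and NQO1 were abundant, at 1663, 892, 526 and 292 CPM in controls. The others were low in controls: EPCAM was at 3.36 CPM, CDH1 at 1.34 CPM, AKR1B10 at 1.10 CPM, KRT19 at 0.243 CPM and ALDH1A1 at 0.209 CPM. A549 cells are known for abundant AKR1B10 and ALDH1A1 and for expressing KRT19 and CDH1, so these 4 levels, which stayed low with B35 (0.619, 0.511, 0.220 and 0.650 CPM), go against the label. With B35 the keratin KRT8 fell to 1117 ± 158 CPM from 1663 ± 34.9 CPM (edgeR adjusted p = 0.00611), and the adhesion molecule EPCAM rose to 7.21 ± 0.197 CPM from 3.36 ± 0.255 CPM (edgeR adjusted p = 0.00248). The 9 markers summed to 3341 to 3447 CPM in controls and 2491 to 2971 CPM with B35, so the groups did not overlap. The part of these shifts in the values of the members was not tested. Of the markers of other cell types, 6 leukocyte genes summed to 2.14 to 3.05 CPM in controls and 2.79 to 3.33 CPM with B35, with CD3E and LYZ at 0 counts in every library. The sums were 27.1 to 27.3 CPM and 19.8 to 22.8 CPM for 6 fibroblast genes, nearly all from COL1A1, and 5.85 to 9.22 CPM and 7.38 to 9.44 CPM for 4 endothelial genes, with KDR at 0.

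Most ribosome biogenesis transcripts had lower estimates in cells given B35, and a minority passed the test. The members were chosen with earlier results of these data known, so the shares below are a description. Of 39 members tested, 11 fell and none rose with B35 (adjusted p under 0.05 in the quasi-likelihood test of edgeR, over all 14773 genes). That is 28.2% lower and 0 higher, against a background of 6.59% lower and 8.82% higher among all genes tested (15.4% called in either direction). The 11 were NOLC1, NCL, UTP20, DKC1, LYAR, DDX21, RRP1B, WDR12, DDX18, NPM3 and NOP56. Among members the median log2 fold change was -0.28, and over all genes tested it was 0.0067. Changes were small: the called members were 1.24-fold to 1.57-fold lower. The estimate was below 0 for 36 of 39 members, against 49.0% of all genes, and the exceptions were PPAN, DDX10 and WDR75. At an unadjusted p under 0.05 the members numbered 20, all with estimates below 0. Over all 14773 genes tested, 4531 were under that value, in either direction. DESeq2 also called no member higher.

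Library by library, most members were lower. In 26 of 39 members every B35 library lay below every control, against 17.5% of all genes tested, and in none did every B35 library lie above every control, against 18.8%. The median over members, relative to the mean of the 3 controls on a log2(CPM + 0.5) scale, was 0.01, -0.012 and -0.008 in control replicates 1 to 3. It was -0.30, -0.24 and -0.29 in B35 replicates 1 to 3, while the median over all genes stayed between -0.0022 and 0.0142 in the 6 libraries. Together the 40 genes took 0.532% to 0.576% of the counts in the controls and 0.443% to 0.489% with B35. In bulk RNA, fewer cells with the transcripts and less RNA per cell cannot be told apart, and CPM values are shares of each library, so a change in the total RNA of a cell would not show in them. Leaving out control replicates 1, 2 and 3 in turn left 3, 7 and 2 members that fell, and leaving out B35 replicates 1, 2 and 3 gave 17, 7 and 7. None rose in any of these 6 fits, in which 1.94% to 10.1% of all genes fell.

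**Figure D1:**
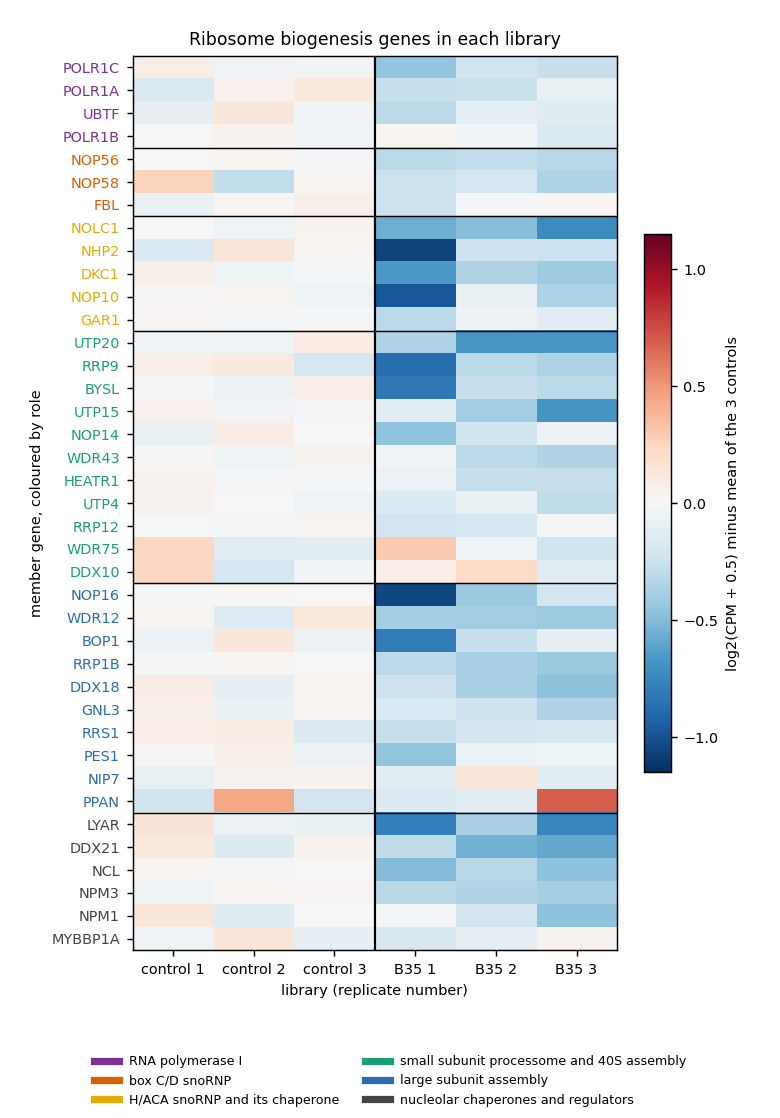
Level of each of the 39 tested members (rows, coloured by role) in each of the 6 libraries (columns), as log2(CPM + 0.5) minus the mean of the 3 controls; blue is lower and red is higher. The B35 columns are mostly blue, with medians of -0.30, -0.24 and -0.29, and the deepest blue is in B35 replicate 1 for NHP2, NOP10 and NOP16.

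Promoters were examined because all members that passed the test moved in the same direction. RefSeq promoter entries (GRCh38.p14, from 250 bases before to 50 bases after the start site) were found for 33 members. NOLC1, DDX18, RRP1B, BOP1, NOP58, RRS1 and RRP12 had no entry. The E-box CACGTG, the site bound by MYC with MAX and by other factors of that class, reads the same on both strands and was present in 15 of the 33 (45.5%), against 8.77% of the 27305 genes in the table. It was found in 3 of 8 members that fell and in 11 of 24 that were not called, and NOP2, which was not tested, had it too. The ETS motif CCGGAAG was present in 33.3% of members and 12.2% of genes, and the GC box GGGCGG in 78.8% and 48.3%. The TATA box TATAAA was in 3.03% and 14%, and each was sought on either strand. Of the 8 members that fell, 1 had the ETS motif, 6 the GC box and 1 the TATA box. Among the 24 not called the numbers were 10, 20 and 0. For all 4 motifs the background of 27305 genes was not limited to the genes tested here, unlike the background of the calls. No match of 1 motif overlapped a match of another in these promoters. A match describes the letters only and says nothing of binding. The stretches below are 30 bases centred on the E-box, in capitals, read 5′ to 3′ on the strand of the gene. They show the site in the 3 members that fell (LYAR, DDX21 and UTP20), in 2 that were not called with the site just before the start (RRP9 and UTP4), and in fibrillarin, where it lies just after the start.
LYAR: cggcggcgagtcCACGTGctccccgcggcc
DDX21: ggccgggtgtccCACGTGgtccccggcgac
UTP20: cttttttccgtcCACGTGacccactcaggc
RRP9: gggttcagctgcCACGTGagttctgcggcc
UTP4: agagcgcgcgcgCACGTGgggccggggcgg
FBL: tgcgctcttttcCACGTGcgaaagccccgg
They lie at chr4:4290068-4290097 (minus strand), chr10:68956604-68956633 (plus), chr12:101280083-101280112 (plus), chr3:51941892-51941921 (minus), chr16:69132621-69132650 (plus) and chr19:39846356-39846385 (minus), in the order shown. The E-box began 64 bases before a RefSeq start in LYAR, 31 in DDX21, 10 in UTP20, 5 in RRP9 and 16 in UTP4. RefSeq gives 2 start sites for 8 members, DDX21 among them, and its distance is to the downstream start.

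RNA polymerase I itself did not pass the test in any of the 4 members measured, where 6.59% of all genes tested were lower. POLR1A, the largest catalytic subunit (chromosome 2, 86020216 to 86106155, hg38), was at 55.2, 64.1 and 67.2 CPM in controls and 51.6, 51.8 and 58.3 CPM with B35. The groups overlapped, and the log2 fold change was -0.21 (95% interval -0.44 to 0.029, edgeR adjusted p = 0.217). POLR1B, the second large subunit, was at 74.2, 76.2 and 71.8 CPM and then at 75.5, 72.6 and 65.9 CPM. Its groups overlapped as well, with a log2 fold change of -0.055 (interval -0.26 to 0.15). POLR1C, a subunit shared with RNA polymerase III, was at 33.3, 30.9 and 31.1 CPM in controls and at 23.0, 27.0 and 26.3 CPM with B35. All 3 of its B35 libraries were below the controls, and its adjusted p was 0.0681 (log2 -0.32, interval -0.56 to -0.083). UBTF, which encodes UBF, was at 122, 142 and 127 CPM and then at 105, 121 and 119 CPM. Its B35 libraries also lay below every control, by a small margin, with a log2 fold change of -0.19 (interval -0.40 to 0.032) and an adjusted p of 0.232. POLR1C and UBTF share exon positions with genes on the opposite strand, with a strand setting not given in the sources used here. When trends on GC content and exon length were removed from each library, POLR1A and UBTF passed as lower.

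Of the 3 members in the box C/D group, 1 fell (33.3%, against 6.59% of all genes tested). NOP56, a scaffold of these particles (ENSG00000101361, chromosome 20, 2652145 to 2658393), was at 104, 107 and 103 CPM in controls and 84.5, 85.8 and 84.0 CPM with B35. The libraries of each group were within a few CPM of each other and the groups were well apart, at 1.24-fold lower (log2 -0.30 ± 0.084 SE, edgeR adjusted p = 0.0332). NOP58, its partner scaffold, was at 121, 83.3 and 104 CPM and then at 85.8, 89.1 and 79.6 CPM, where control replicate 2 lay among the B35 libraries (adjusted p = 0.172). FBL, fibrillarin, the methyltransferase, was at 203, 217 and 223 CPM and then at 181, 211 and 217 CPM. Its groups overlapped, and the 95% interval of its log2 fold change ran from -0.29 to 0.13. The call of NOP56 was lost in 5 of the 6 fits with 1 library left out, all but that without B35 replicate 1, and without a filter on low counts (largest adjusted p 0.132).

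The H/ACA group held the clearest change of all 40 genes. NOLC1, or Nopp140, a chaperone that carries these particles through the nucleolus (ENSG00000166197, chromosome 10, 102152176 to 102163871), was at 307, 296 and 314 CPM in controls. With B35 it was at 207, 218 and 184 CPM. The lowest control stood far above the highest B35 library, a fall of 1.51-fold (log2 -0.59 ± 0.093 SE, edgeR adjusted p = 0.00267). NOLC1 was the only member whose call held in all 15 alternative analyses, with an adjusted p of at most 0.0246. DKC1, dyskerin, the pseudouridine synthase (chromosome X, 154762742 to 154777689), was at 193, 179 and 182 CPM in controls and 117, 145 and 139 CPM with B35. All 3 B35 libraries were lower, replicate 1 the most, at 1.38-fold (log2 -0.47 ± 0.10 SE, edgeR adjusted p = 0.0119). Its call was lost without control replicate 1 or 3 (largest adjusted p 0.0588).

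The small H/ACA proteins were lower in every B35 library without passing the test. NHP2 was at 60.4, 75.0 and 69.5 CPM in controls and 32.3, 57.6 and 57.2 CPM with B35. NOP10 was at 122, 124 and 117 CPM and then at 61.5, 114 and 94.8 CPM. In both genes B35 replicate 1 was far below the other B35 libraries, and the adjusted p was 0.115 and 0.128. GAR1 was at 31.8, 30.9 and 30.8 CPM and then at 25.0, 29.9 and 28.6 CPM (adjusted p = 0.335).

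In the small subunit processome and 40S assembly group, 1 of 11 tested genes fell. That is 9.09%, near the background of 6.59% of all genes tested. UTP20, a very large scaffold protein of the processome (ENSG00000120800, chromosome 12, 101280109 to 101386616), was at 64.3, 63.7 and 70.5 CPM in controls and 51.9, 41.5 and 41.3 CPM with B35. The groups did not overlap, and B35 replicate 1 was the least reduced, in contrast to NHP2 and NOP10. The fall was 1.48-fold (log2 -0.56 ± 0.11 SE, edgeR adjusted p = 0.00867), and its call was lost without control replicate 3 (adjusted p = 0.0565). BYSL, bystin, needed for the last nuclear steps of the 40S subunit, was at 41.4, 40.3 and 44.2 CPM and then at 23.5, 34.8 and 33.6 CPM. RRP9, a U3 particle protein, was at 26.8, 27.5 and 22.0 CPM and then at 13.7, 20.3 and 19.7 CPM. Both were below the controls in every B35 library and just missed the threshold, with adjusted p of 0.0557 and 0.0574. DESeq2 called both lower.

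Among the processome subunits of the UTP-A group, which acts with transcription of the precursor, HEATR1, UTP4 and UTP15 were below every control in every B35 library and WDR43 and WDR75 overlapped. Their log2 fold changes were -0.20 for HEATR1, -0.17 for UTP4, -0.39 for UTP15, -0.22 for WDR43 and 0.014 for WDR75, none with an adjusted p under the threshold. WDR75 was at 43.8, 34.1 and 34.1 CPM in controls and at 45.7, 35.9 and 31.6 CPM with B35. In each group its highest library was replicate 1. DDX10, a helicase, had a log2 fold change of 0.055 with an interval from -0.27 to 0.38. NOP14 and RRP12 had log2 fold changes of -0.25 and -0.14 and were not called.

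Large subunit assembly held 3 members that fell of 10 tested (30.0%, against 6.59% of all genes tested). RRP1B (ENSG00000160208, chromosome 21, 43659548 to 43696079), a nucleolar protein of early 60S particles, was at 137, 142 and 139 CPM in controls and 113, 108 and 104 CPM with B35. WDR12, of the PeBoW complex that processes the 5.8S and 28S precursor, was at 41.3, 36.5 and 44.0 CPM and then at 30.8, 30.6 and 30.1 CPM. DDX18, a helicase of 60S maturation, was at 180, 157 and 173 CPM and then at 144, 131 and 122 CPM. No library of the 3 genes crossed into the other group. They were 1.29-, 1.33- and 1.28-fold lower (edgeR adjusted p = 0.0159, 0.0239 and 0.0319). The calls were kept in 2, 2 and 1 of the 6 fits with 1 library left out, in that order (largest adjusted p 0.0898, 0.139 and 0.139).

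The partners of WDR12 in the PeBoW complex were not called. BOP1 was at 58.2, 66.6 and 58.5 CPM in controls and 34.7, 50.7 and 56.4 CPM with B35, all below the controls but widely spread (adjusted p = 0.138). PES1, pescadillo, was at 92, 95 and 87.4 CPM and then at 66.5, 87.3 and 88.4 CPM. Its B35 replicates 2 and 3 were close to the lowest control (adjusted p = 0.332). NOP16 was at 22.6, 23.1 and 23.0 CPM and then at 10.9, 16.9 and 19.7 CPM, with a log2 fold change of -0.53 and an adjusted p of 0.0745. GNL3, nucleostemin, a nucleolar GTPase, was at 167, 153 and 164 CPM and then at 142, 137 and 127 CPM (adjusted p = 0.0807). RRS1 had a log2 fold change of -0.23 and NIP7 one of -0.032, and neither was called.

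For NOP2 and PPAN the tables hold few reads. NOP2, the methyltransferase also called p120, had 7, 11 and 6 counts in the controls and 2, 2 and 7 counts with B35, and it did not pass the filter. It shares exon positions on the same strand with AC006064.6, a gene listed at 0 counts in all libraries. PPAN, needed early in 60S assembly, had 42 to 97 counts per library and shares exons with the read-through gene PPAN-P2RY11, also at 0 in all libraries. Its log2 fold change was 0.18 with an interval from -0.53 to 0.89. The handling of reads over shared exons was not given in the sources used here, and the part of the overlap in these low counts was not tested.

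Nucleolar chaperones and regulators held the most members that fell, 4 of 6 (66.7%, against 6.59% of all genes tested). NCL, nucleolin, which binds the nascent precursor RNA (ENSG00000115053, chromosome 2, 231453531 to 231483641), was at 581, 562 and 567 CPM in controls and 402, 456 and 410 CPM with B35. The control libraries were close together and all B35 libraries were lower, at 1.35-fold (log2 -0.43 ± 0.086 SE, edgeR adjusted p = 0.00839). LYAR, a nucleolar zinc finger protein (chromosome 4, 4267701 to 4290169), was at 23.0, 19.7 and 19.6 CPM in controls and 11.8, 15.8 and 12.1 CPM with B35. Its fall was larger than that of any other called member, at 1.57-fold (log2 -0.65 ± 0.15 SE, adjusted p = 0.0138). NCL lost its call without control replicate 3 (adjusted p = 0.0559) and LYAR without control replicate 1 (0.0680).

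DDX21, a helicase of the RNA polymerase I compartment (chromosome 10, 68956128 to 68985073), was at 394, 327 and 373 CPM in controls and 297, 249 and 241 CPM with B35. Every B35 library was lower, and the fall was 1.39-fold (log2 -0.47 ± 0.11 SE, edgeR adjusted p = 0.0156). NPM3, a relative of nucleophosmin, was at 33.5, 35.1 and 35.3 CPM and then at 27.6, 27.2 and 26.4 CPM. Its spread within groups was small, and it was 1.28-fold lower (adjusted p = 0.0325). The calls of DDX21 and NPM3 were kept in 2 and 1 of the 6 fits with 1 library left out, and that of NPM3 was also lost without a filter on low counts (largest adjusted p 0.0802 and 0.148). NPM1, nucleophosmin, was the most abundant member at 1984, 1638 and 1817 CPM in controls and 1783, 1558 and 1306 CPM with B35. The groups overlapped (log2 -0.23, edgeR adjusted p = 0.232), and without B35 replicate 1 it passed as lower. GENCODE lists 45 pseudogenes named after NPM1, 5 after DDX18, 3 after NOP56, 2 after NCL and 1 after LYAR, so reads of these genes could be split between copies. MYBBP1A, which binds MYB, had a log2 fold change of -0.086 and was not called.

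**Figure D2:**
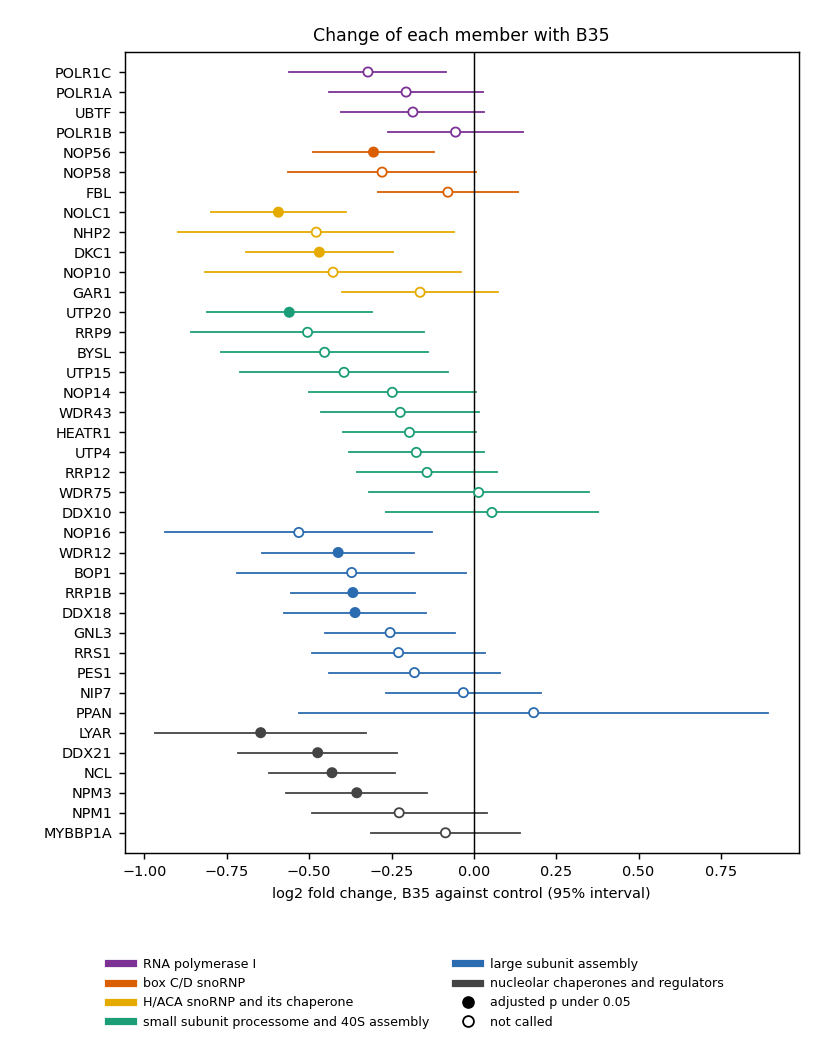
Log2 fold change of the 39 tested members, B35 against control, with 95% intervals from the edgeR fit, ordered within each role. The 11 filled points passed the test and all lie below 0; the 4 RNA polymerase I genes at the top are open, and PPAN has the widest interval, from -0.53 to 0.89.

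Members differed widely in level. On the deposited FPKM scale, which accounts for gene length, NPM1 led in controls at 471 ± 45.2, followed by NOP10 at 218 ± 6.23, FBL at 98.2 ± 4.81, NCL at 81.9 ± 1.43 and NOLC1 at 76.7 ± 2.46 (SD, n = 3 each). FBL stood above NCL and NOLC1 by more than their spread. POLR1A was at 4.58 ± 0.467 FPKM and POLR1C at 5.70 ± 0.239 FPKM, near the low end. The members that fell ranged from 81.9 FPKM for NCL to 4.44 FPKM for WDR12, so they included abundant and scarce transcripts. Members resembled other tested genes in median merged exon length, 4557 against 4618 bases, and in the median GC content of the longest transcript, 48.0% against 48.8%.

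Other genes of the same pathway were lower in part. In 7 further lists of ribosome genes, with 233 genes tested, 27 fell and 1 rose, with a median log2 fold change of -0.14. That share, 11.6% lower, was nearer to the background than that of the members, and the difference between these lists and the members was not tested. Leaving out control replicates 1, 2 and 3 in turn left 6, 14 and 1 that fell, and leaving out B35 replicates 1, 2 and 3 gave 46, 25 and 13.

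Of 43 other genes of the small subunit processome and 40S assembly, 8 fell and none rose (18.6% lower, against 6.59% of all genes tested). PNO1, a 40S assembly factor, was at 28.9 ± 2.11 CPM in controls and 18.6 ± 2.22 CPM with B35, and RRP36 at 67.2 ± 5.12 and 44.9 ± 3.20 CPM (SD, n = 3 each). UTP18 was 1.32-fold lower, and LTV1, an export adaptor of the 40S subunit, 1.55-fold lower. Of 50 other large subunit genes, 8 fell and 1 rose (16.0% lower). GTPBP4, EBNA1BP2 and LSG1 were 1.36-, 1.36- and 1.38-fold lower. NOP53, which binds the 60S particle and brings the exosome to it, was the member of these lists that rose, from 214 ± 17.8 to 308 ± 26.2 CPM (log2 0.52 ± 0.10 SE, edgeR adjusted p = 0.00672). Without control replicate 3, 1 gene of the small subunit list and none of the large subunit list were called lower, and NOP53 was not called.

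Of 14 other genes of RNA polymerase I transcription, 1 fell and none rose, with a median log2 fold change of 0.028. The gene that fell was TCOF1, treacle, a partner of UBF and the polymerase, from 111 ± 5.39 to 90.1 ± 6.41 CPM (edgeR adjusted p = 0.0498). It was not called with any 1 control left out, without B35 replicate 2 or replicate 3, with upper-quartile scaling or without the filter on low counts. Of 12 snoRNP assembly factors RUVBL1, an ATPase, fell by 1.34-fold and no other was called. Of 14 nuclear exosome genes, which trim the precursor, 3 fell: EXOSC8, MPHOSPH6 and EXOSC9, by 1.38-, 1.42- and 1.31-fold. Of 21 genes of RNA polymerase III, POLR3K and POLR3G fell by 1.48-fold and 1.63-fold. The shares lower in these 4 lists were 7.14%, 8.33%, 21.4% and 9.52%, in the order given. Among all genes tested 6.59% were lower, so all but the exosome list were near the background. Without control replicate 1, and likewise without control replicate 3, no gene of these 4 lists was called lower, and the exosome falls were also lost without B35 replicate 2 or replicate 3.

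Transcripts of the ribosomal proteins themselves were mostly not called. Of 79 tested, 4 fell and none rose, which is 5.06% against 6.59% of all genes. The groups overlapped for 64 of them, against 9408 of all 14773 genes tested. Estimates were below 0 for 61 of the 79, against 49.0% of all genes, with a median log2 fold change of -0.11. RPSA fell from 1478 ± 77.9 to 1100 ± 102 CPM (log2 -0.43 ± 0.095 SE, edgeR adjusted p = 0.0136), and RPS12, RPL9 and FAU fell by 1.36-, 1.43- and 1.23-fold. Without control replicate 1 or control replicate 3 none was called lower, and without B35 replicate 2 the number was 12. Together these genes took 5.62% to 5.81% of the counts in controls and 5.15%, 6.09% and 5.41% in B35 replicates 1 to 3. Ribosomal protein genes have many processed pseudogenes, so their reads could be split.

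**Figure D3:**
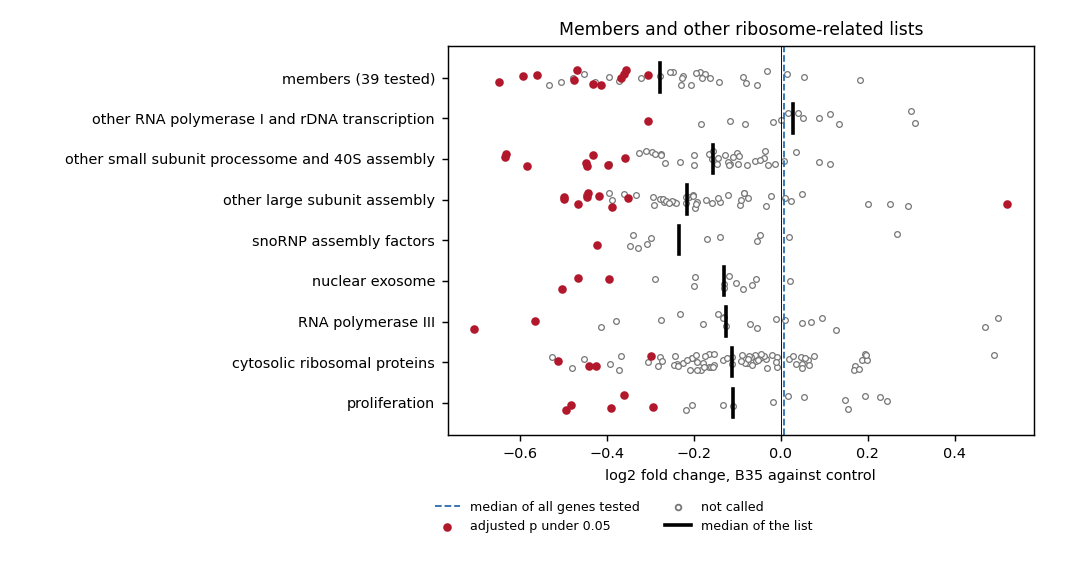
Log2 fold change of each tested gene in the member list and in 8 other lists; red points passed the test, open points did not, black bars are list medians and the dashed line is the median of all genes tested (0.0067). The members' median lies at -0.28, that of the other RNA polymerase I list at 0.028, and the single red point above 0 is NOP53.

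Proliferation genes were measured beside these values. Of 17 tested, 5 fell and none rose: MCM6, PCNA, MCM3, MCM4 and MCM5, all of DNA replication, were 1.23-fold to 1.41-fold lower. That is 29.4% lower, a share close to the 28.2% of members, against 6.59% of all genes tested. MCM6 went from 234 ± 8.98 to 166 ± 9.78 CPM and PCNA from 327 ± 18.7 to 235 ± 12.7 CPM. The other 12 were not called and lay on both sides of 0. The mitotic cyclin CCNB1 (log2 fold change 0.24) and the mitotic kinase PLK1 (0.23) had every B35 library above every control, and MCM2, of the replicative helicase, had every B35 library below (-0.20). The groups overlapped for the remaining 9, among them MKI67 and TOP2A at 0.15 each, CCNA2 at -0.22 and CDK1 at -0.13. With any 1 control left out 2 genes of the list were called lower, without B35 replicate 3 the number was 3, and without B35 replicate 1 it was 6, with 1 called higher. The part of proliferation in the values of the members was not tested.

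**Figure D4:**
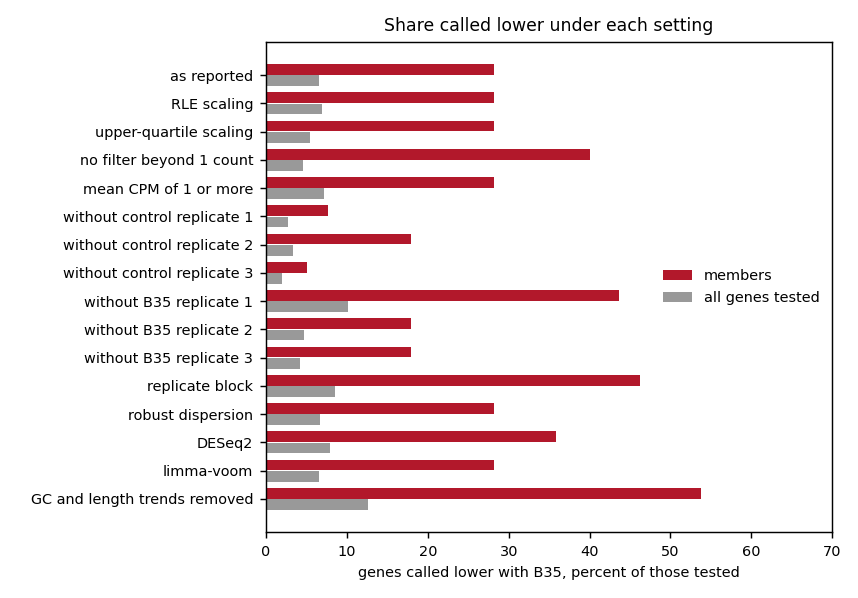
Percent of tested genes called lower with B35 under each analysis setting, for the members (red bars) and for all genes tested (grey bars). The share ran from 5.13% of members without control replicate 3 to 53.8% with GC and length trends removed, against 1.94% and 12.6% of all genes in the same fits.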

How the data were processed

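Per the labels' protocols, RNA was extracted with TRIzol and libraries were made with a NEBNext Ultra kit. The submitters' processing notes name HISAT2 2.0.5, featureCounts 1.5.0-p3 and the build hg38. The annotation and strand setting are not given in the sources used here. The deposited files hold whole-number counts and FPKM values per gene, both made by the authors, and FPKM served only to compare levels between genes. Symbols, coordinates and overlaps came from GENCODE 29, which held all identifiers. Promoters came from RefSeq (GRCh38.p14).

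Counts were tested in R 4.3.3 with edgeR 4.0.16 (quasi-likelihood, two-sided). Genes were kept by filterByExpr, with a count of 10 and a total of 15 as minimums, and scaled by TMM. Benjamini-Hochberg adjustment covered all genes tested. The SE is the log2 fold change, without its sign, over the square root of F. Intervals of 95% use the total degrees of freedom of the test, 10.89 in the median. CPM are given per library or as mean ± SD. Chi-square tests between replicates gave 4.46 to 32.3 per degree of freedom, above sampling noise. Such values cannot tell separate cultures from separate library preparations. Each library counted as 1 replicate. The script was tested on simulated data. Python 3.11.15, with pandas 2.3.3 and matplotlib 3.10.9, made tables and plots.

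Alternatives were scaling by RLE or upper quartile, no filter beyond 1 count, a minimum mean CPM of 1, leaving out each library, a term for the replicate number, robust dispersion, DESeq2 1.42.0, limma-voom (limma 3.58.1), and GC and length trends removed by spline offsets.

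The members, lists, roles and tests were chosen with earlier results of these data known. Named genes were all members, at most 4 called genes per other list in order of adjusted p, and KDM1A. Library values were set for members that were called, for RNA polymerase I and for the most abundant others. Those of the remaining members, and the names of uncalled proliferation genes and MCM5, were added after their values were seen.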

Additional observations from a re-analysis of the deposited data

How the results depend on the processing

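In 15 alternatives no member was called higher and no call changed direction. Of 585 values (39 members, 15 alternatives each), 515 kept their side of the threshold, 34 lost a call and 36 gained one. RLE scaling, upper-quartile scaling, a mean CPM of 1 or more, robust dispersion and limma-voom called 11 members lower, the same 11 in each. DESeq2 called 14 and the fit without a filter 16, of which 11 and 9 were among the 11. With GC and length trends removed, 21 members were lower, 1984 genes rose and 1866 fell over all, and the other ribosome lists had 8 higher and 54 lower. With 1 library left out, members lower ranged from 2 to 17 and their median from -0.32 to -0.26. All genes higher ranged from 587 to 1822 and lower from 294 to 1520, and the other ribosome lists from 0 to 6 higher and 1 to 46 lower. The rises in those lists numbered 4 with upper-quartile scaling, 2 with no filter and 2 with DESeq2. Deviations from the group means correlated at 0.163, 0.0162 and -0.063 between same-numbered control and B35 libraries. With 3 libraries per group, these values cannot decide whether the numbers pair the libraries. With the replicate block 18 members were lower, 3 genes of the other lists were higher and 40 lower, and 1594 genes rose and 1261 fell over all. Fits without 1 library use fewer samples, and the cause of the other shifts was not tested.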

Other observations

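Several members carry small nucleolar RNA genes, whose products guide modification of ribosomal RNA, inside their bounds. GENCODE 29 places 26 such genes within 8 members on the same strand: NOP56, NOP58, NCL, DKC1, WDR43, PPAN, GNL3 and POLR1C. Of the 26, 16 had no count in any library, and the largest total was 42 counts over the 6 libraries. Their levels could not be compared from these counts. Of the 8 host genes, 3 fell with B35 (NOP56, NCL and DKC1), against 28.2% of members and 6.59% of all genes tested.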
